A study of Mus musculus with 12 samples.

Results

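Transcripts of 10 genes used as markers of neural progenitors and neurons were followed in mouse embryonic stem cells that lacked the helicase DHX36, the helicase FANCJ or both. The genes were Pax6, Nes, Map2, Nefl, Nefm, Tubb3, Gap43, Dpysl2, Ncam1 and Epha4, taken by name from a count table of 32285 genes. All 10 were among the 12765 genes that passed the filter on low counts. Bulk RNA sequencing had been made from the IB10 line, which derives from 129/Ola mice, with 3 libraries for each of 4 genotypes: DHX36/FANCJ KO, DHX36 KO, FANCJ KO and WT. FANCJ is the product of the mouse gene Brip1. The cells of every genotype were untreated and were grown on gelatin with serum, leukaemia inhibitory factor and medium conditioned by Buffalo rat liver cells. The labels used here do not say how many clones each knockout came from, which part of each gene was deleted, or whether the libraries within a genotype were separate cultures. The p-values therefore measure the spread between these libraries, which may be technical, and a difference between genotypes cannot be told apart from a difference between clones.

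Embryonic stem cells keep most neural genes at low levels, and cells that leave pluripotency along the neural path switch them on in an order. PAX6, a transcription factor of early neuroectoderm, and nestin, an intermediate filament protein of neural progenitors, mark the early steps. Neurofilaments, neuronal tubulin and microtubule-associated proteins build the cytoskeleton of neurons, GAP43 and DPYSL2 act in growing axons, and NCAM1 and EPHA4 are surface proteins of neural cells. Several of these genes are also transcribed in other cell types, so a transcript by itself does not show a neural cell. DHX36 unwinds G-quadruplexes, structures formed by guanine-rich DNA or RNA, and FANCJ is a DNA helicase with the same kind of substrate.

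The libraries held 4284785 to 14721931 counts over genes, and each DHX36/FANCJ KO library was deeper than each WT library. Dhx36 averaged 13.9 ± 1.54 CPM in DHX36/FANCJ KO, 10.5 ± 1.45 CPM in DHX36 KO, 55.6 ± 3.57 CPM in FANCJ KO and 54.1 ± 3.79 CPM in WT (SD, n = 3 each), where CPM is the usual count scaled to a common library total. Brip1 had 2 to 11 counts in DHX36/FANCJ KO libraries and 1 to 3 in FANCJ KO libraries, against 47 to 75 in DHX36 KO and 30 to 38 in WT libraries. Both targeted genes were thus low in the genotypes named for their loss. The remaining Dhx36 transcript was nevertheless higher in DHX36/FANCJ KO than in DHX36 KO, by 0.39 on the log2 scale (edgeR, adjusted p under 0.05). The part of this difference in the comparisons of these genotypes, and in the interaction below, was not tested. The pluripotency gene Nanog averaged 269 CPM in DHX36/FANCJ KO, 212 CPM in DHX36 KO, 214 CPM in FANCJ KO and 217 CPM in WT, and several defining neural and glial genes were at or near 0. Over all 12 libraries Dcx had 4 counts, Neurog2 4, Fabp7 3, Gfap 2 and Aqp4 0. In bulk RNA, fewer cells that express a gene and less of its RNA per cell cannot be told apart. The libraries count tags near the 3′ end of transcripts, so the levels below are compared between genotypes for 1 gene at a time and not between genes.

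Because both helicases act on G-quadruplexes, the promoters of the 10 genes were searched for the sequence pattern of such structures, 4 runs of 3 or more G with 1 to 7 bases of any kind between neighbouring runs. RefSeq promoter windows on GRCm38.p6 were at hand for 5 of the genes, namely Pax6, Nes, Map2, Tubb3 and Epha4. In the 250 bases before the transcription start, Map2, Tubb3 and Epha4 held the motif on the strand read as the transcript, and none of the 5 genes held it on the opposite strand. Of 32851 promoter windows of the same length, 9.10% held it on the transcript strand, 8.47% on the opposite strand and 16.7% on either. The 3 sequences with a motif are shown because they carry that pattern, written 5′ to 3′ along the transcript, ending before the gene's annotated start, with the motif in capitals. The Map2 sequence is chr1:66175079-66175272 on the plus strand, the Tubb3 sequence chr8:123411303-123411423 on the plus strand and the Epha4 sequence chr1:77515089-77515338 on the minus strand.
Map2: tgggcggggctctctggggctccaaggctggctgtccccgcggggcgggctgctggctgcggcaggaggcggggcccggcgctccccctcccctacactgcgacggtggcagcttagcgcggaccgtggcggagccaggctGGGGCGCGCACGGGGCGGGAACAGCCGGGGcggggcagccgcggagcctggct
Tubb3: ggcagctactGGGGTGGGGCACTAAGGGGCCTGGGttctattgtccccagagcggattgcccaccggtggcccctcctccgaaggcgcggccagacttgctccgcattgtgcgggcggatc
Epha4: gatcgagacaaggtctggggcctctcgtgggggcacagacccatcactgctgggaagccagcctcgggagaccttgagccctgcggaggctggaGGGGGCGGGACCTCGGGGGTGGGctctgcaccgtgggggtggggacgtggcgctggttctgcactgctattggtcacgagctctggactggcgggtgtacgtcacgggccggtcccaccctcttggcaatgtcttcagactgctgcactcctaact
The motif began 109 bases before the RefSeq start in Map2, 240 bases before it in Tubb3 and 156 bases before it in Epha4, and was 30, 25 and 23 bases long in that order. A match describes these letters and does not show that a structure forms or that a helicase acts there. In DHX36 KO against WT, Map2 fell, while Tubb3 and Epha4 rose.

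Epha4 was higher than in WT in both genotypes without DHX36, Tubb3 was higher in DHX36 KO, and most of the others were lower in 1 or both of these genotypes. Against WT, 1 of the 10 genes rose and 7 fell in DHX36/FANCJ KO, with a median log2 fold change of -0.88 beside 0.01 over all genes tested (edgeR's quasi-likelihood test, adjusted p under 0.05). Of all tested genes 33.9% changed in that comparison, 16.6% upward and 17.3% downward. In DHX36 KO 2 of the 10 rose and 5 fell, with a median of -0.43 beside 0.00, where 24.4% of all genes changed, 12.8% upward and 11.6% downward. In FANCJ KO none of the 10 passed the test with edgeR and 2.07% of all genes did, 3 of the 10 had an unadjusted p under 0.05, and DESeq2 called 1, Gap43. The median of the 10 in FANCJ KO was -0.03. These 3 comparisons share the WT libraries, so their values are set side by side and not counted as separate evidence. The 10 genes were chosen with earlier results of these data known. Their counts and medians stand beside those of all genes as a description and not as a test of the set.

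**Figure D1:**
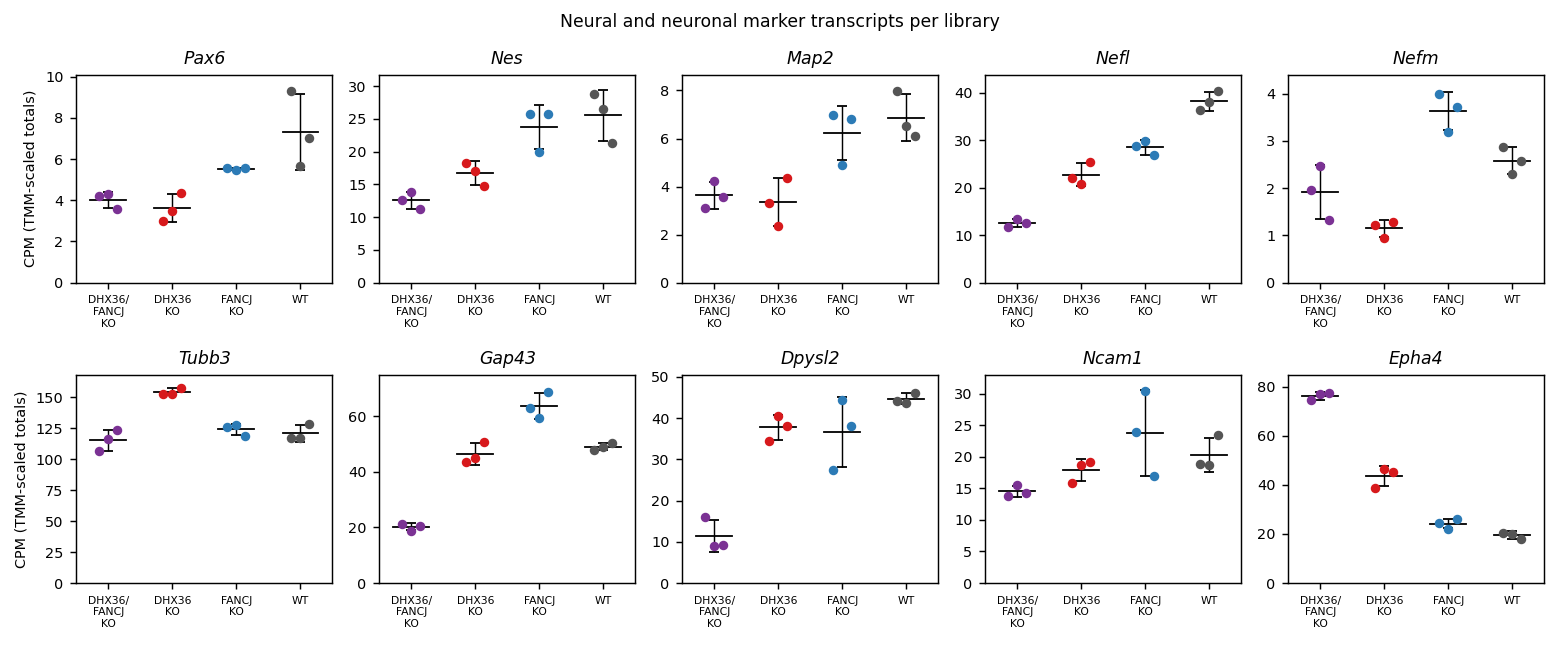
Level of each of the 10 genes in CPM (vertical axis, from 0, a scale of its own per gene) in the 3 libraries of DHX36/FANCJ KO, DHX36 KO, FANCJ KO and WT; points are libraries, wide bars the means and whiskers the SD. Epha4 libraries of DHX36/FANCJ KO sit at 74.5 to 77.4 CPM, above those of every other genotype, and Gap43 and Dpysl2 libraries of DHX36/FANCJ KO sit below all others.

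Counted by library rather than by test, the 3 DHX36/FANCJ KO libraries lay all above the WT libraries for 1 gene, all below them for 7 and overlapped them for 2, where the groups did not overlap for 45.2% of all genes tested. For DHX36 KO against WT the numbers were 2 above, 6 below and 2 overlapping, with 37.6% of all genes not overlapping. For FANCJ KO against WT they were 3 above, 2 below and 5 overlapping, with 18.7% of all genes not overlapping. The CPM of the 10 genes added together ran from 265 to 277 in DHX36/FANCJ KO libraries, 333 to 361 in DHX36 KO, 336 to 347 in FANCJ KO and 328 to 343 in WT. The sum in DHX36/FANCJ KO therefore lay below that in WT although Epha4 was higher. Tubb3 weighed most in these sums, with a mean of 129 CPM over the 12 libraries beside 44.9 CPM for Gap43, the next highest.

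The progenitor genes Pax6 and Nes were lower in both genotypes without DHX36. Pax6 (ENSMUSG00000027168, GRCm38 chromosome 2, 105668900 to 105697364, plus strand) encodes a transcription factor with a paired domain and a homeodomain. Its level was 4.19, 4.31 and 3.56 CPM in DHX36/FANCJ KO, 3.00, 3.47 and 4.34 CPM in DHX36 KO, 5.54, 5.45 and 5.57 CPM in FANCJ KO and 9.30, 5.66 and 7.03 CPM in WT. All libraries of the 3 knockout genotypes lay below the lowest WT library, and DHX36/FANCJ KO and DHX36 KO overlapped each other. Pax6 fell by 0.84 on the log2 scale (SE 0.22, adjusted p = 0.00588) in DHX36/FANCJ KO and by 0.99 (SE 0.24, adjusted p = 0.00406) in DHX36 KO, and was -0.39 (SE 0.23, adjusted p = 0.454) in FANCJ KO. The call in DHX36/FANCJ KO was lost without WT library 1, the highest (adjusted p = 0.0608).

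Nes (ENSMUSG00000004891, chromosome 3, 87971078 to 87980451, plus strand), which encodes nestin, had its lowest transcript level where both helicases were missing. Its transcript had 12.6, 13.9 and 11.3 CPM in DHX36/FANCJ KO, 18.3, 17.1 and 14.7 CPM in DHX36 KO, 25.8, 19.9 and 25.8 CPM in FANCJ KO and 28.8, 26.5 and 21.3 CPM in WT. The genotypes ran in the order DHX36/FANCJ KO, DHX36 KO, FANCJ KO and WT from low to high, and of neighbours in that order only FANCJ KO and WT overlapped. Against WT, Nes fell by 1.02 (SE 0.15, adjusted p = 1.45e-05), or 2.03-fold, in DHX36/FANCJ KO and by 0.62 (SE 0.15, adjusted p = 0.00392) in DHX36 KO. In DHX36/FANCJ KO it was also lower than in FANCJ KO (-0.91, SE 0.14, adjusted p = 3.38e-05), while the difference from DHX36 KO was -0.40 (SE 0.14, adjusted p = 0.0583).

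Among genes of the neuronal cytoskeleton, the neurofilament gene Nefl and the microtubule-associated protein gene Map2 were lower without DHX36, and the tubulin gene Tubb3 was higher in DHX36 KO alone. Nefl (ENSMUSG00000022055, chromosome 14, 68083863 to 68089095, plus strand) encodes the light chain of neurofilaments. It was counted at 11.6, 13.4 and 12.6 CPM in DHX36/FANCJ KO, 22.0, 20.7 and 25.4 CPM in DHX36 KO, 28.7, 29.8 and 26.8 CPM in FANCJ KO and 36.3, 38.0 and 40.3 CPM in WT. None of the 4 genotypes overlapped another, in that order from low to high. Nefl fell 3.04-fold in DHX36/FANCJ KO (log2 fold change -1.61, SE 0.12, adjusted p = 1.26e-09) and 1.67-fold in DHX36 KO (-0.74, SE 0.12, adjusted p = 6.7e-05). In FANCJ KO the log2 fold change of Nefl was -0.42 (SE 0.12, adjusted p = 0.0690). It was lower in DHX36/FANCJ KO than in either single knockout, by 0.87 (SE 0.12, adjusted p = 1.65e-05) against DHX36 KO and by 1.19 (SE 0.12, adjusted p = 7.44e-08) against FANCJ KO on the log2 scale.

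Nefm, which encodes the medium chain of neurofilaments (ENSMUSG00000022054, chromosome 14, 68082590 to 68124846, minus strand), was counted far more thinly. It had 29, 31 and 15 counts in DHX36/FANCJ KO, 11, 6 and 14 in DHX36 KO, 31, 24 and 18 in FANCJ KO and 13, 13 and 11 in WT, or on average 1.92 ± 0.569, 1.15 ± 0.183, 3.63 ± 0.408 and 2.58 ± 0.290 CPM in the same order (SD, n = 3 each). DHX36 KO libraries lay below those of WT and FANCJ KO libraries above them. Nefm fell by 1.11 (SE 0.37, adjusted p = 0.0315) in DHX36 KO against WT, and this call was lost with any 1 of the 6 libraries left out (adjusted p of 0.0526 to 0.0933) and with DESeq2 (0.0511). Its log2 fold change against WT was -0.41 (SE 0.33, adjusted p = 0.364) in DHX36/FANCJ KO and 0.50 (SE 0.33, adjusted p = 0.514) in FANCJ KO. Against FANCJ KO, Nefm was lower in DHX36/FANCJ KO by 0.90 (SE 0.29, adjusted p = 0.0189), a call lost without FANCJ KO library 1 (0.0788) or DHX36/FANCJ KO library 3 (0.0831). The annotated Nefl gene lies within the span of Nefm on the other strand. The sources used here do not say whether the counting used strand. Reads from the stretch that both genes span can therefore not be told apart, while the rest of the Nefm span lies outside Nefl. Nefl had 2214 counts over the 12 libraries beside 216 for Nefm.

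Map2 (ENSMUSG00000015222, chromosome 1, 66175273 to 66442583, plus strand) encodes a protein that stabilises microtubules in dendrites. It had 3.11, 4.23 and 3.56 CPM in DHX36/FANCJ KO, 3.34, 2.37 and 4.34 CPM in DHX36 KO, 6.96, 4.92 and 6.81 CPM in FANCJ KO and 7.97, 6.54 and 6.09 CPM in WT. The 6 libraries without DHX36 lay below the 6 with it, and within each of these sets the genotypes overlapped. The fall against WT was 0.92 on the log2 scale (SE 0.24, adjusted p = 0.00571) in DHX36/FANCJ KO and 0.99 (SE 0.26, adjusted p = 0.00729) in DHX36 KO, and the value in FANCJ KO was -0.15 (SE 0.25, adjusted p = 0.842). Map2 was lower in DHX36/FANCJ KO than in FANCJ KO by 0.77 (SE 0.23, adjusted p = 0.0132), a call lost without FANCJ KO library 1 (0.0721) or DHX36/FANCJ KO library 1 (0.0609).

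Tubb3 (ENSMUSG00000062380, chromosome 8, 123411424 to 123422015, plus strand) encodes class III beta-tubulin, the tubulin of neurons. It was measured at 106, 116 and 123 CPM in DHX36/FANCJ KO, 153, 153 and 158 CPM in DHX36 KO, 126, 127 and 118 CPM in FANCJ KO and 117, 117 and 128 CPM in WT. Only the DHX36 KO libraries stood apart, above all others, and the other genotypes overlapped. Tubb3 rose by 0.36 (SE 0.08, adjusted p = 0.00319) in DHX36 KO against WT and was 0.42 lower on the log2 scale in DHX36/FANCJ KO than in DHX36 KO (-0.42, SE 0.08, adjusted p = 0.000669). Against WT it was -0.07 (SE 0.08, adjusted p = 0.575) in DHX36/FANCJ KO and 0.04 (SE 0.08, adjusted p = 0.881) in FANCJ KO. Tubulin genes resemble one another, and the sources used here do not say how reads with several alignments were counted.

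The axon growth genes Gap43 and Dpysl2 fell where both helicases were missing and passed the test in neither single knockout. GAP43, a membrane protein of growth cones, is encoded by Gap43 (ENSMUSG00000047261, chromosome 16, 42248442 to 42340651, minus strand). It was counted at 21.3, 18.9 and 20.5 CPM in DHX36/FANCJ KO, 43.5, 45.2 and 50.8 CPM in DHX36 KO, 62.9, 59.6 and 68.9 CPM in FANCJ KO and 47.8, 49.1 and 50.4 CPM in WT. The DHX36/FANCJ KO libraries lay below and the FANCJ KO libraries above those of the other genotypes, and DHX36 KO and WT overlapped. Gap43 fell 2.42-fold in DHX36/FANCJ KO against WT (log2 fold change -1.28, SE 0.11, adjusted p = 5.91e-09). The log2 fold change against WT was -0.08 (SE 0.10, adjusted p = 0.628) in DHX36 KO and 0.37 (SE 0.10, adjusted p = 0.0615) in FANCJ KO, where DESeq2 gave an adjusted p of 0.0465. The difference of DHX36/FANCJ KO was -1.20 (SE 0.10, adjusted p = 3.61e-08) from DHX36 KO and -1.65 (SE 0.10, adjusted p = 3.95e-11) from FANCJ KO.

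Dpysl2 (ENSMUSG00000022048, chromosome 14, 66802864 to 66868688, minus strand) encodes CRMP2, which binds tubulin and acts in axon growth and in the collapse of growth cones by semaphorins. It had 15.9, 9.09 and 9.26 CPM in DHX36/FANCJ KO, 34.5, 40.6 and 38.1 CPM in DHX36 KO, 27.5, 44.4 and 38.0 CPM in FANCJ KO and 44.1, 43.7 and 46.1 CPM in WT. The DHX36/FANCJ KO libraries lay below all others, and the spread within DHX36/FANCJ KO and FANCJ KO was wider than counting alone gives, with a coefficient of variation of 34.0% beside 8.14% from counting in DHX36/FANCJ KO and 23.4% beside 6.41% in FANCJ KO. Dpysl2 fell 3.85-fold in DHX36/FANCJ KO against WT (-1.95, SE 0.18, adjusted p = 4.45e-08), and by 2.28 on the log2 scale without DHX36/FANCJ KO library 1, the highest of its genotype. It was -0.25 (SE 0.17, adjusted p = 0.327) in DHX36 KO and -0.29 (SE 0.18, adjusted p = 0.471) in FANCJ KO. DHX36/FANCJ KO was lower than DHX36 KO by 1.70 (SE 0.18, adjusted p = 5.98e-07) and lower than FANCJ KO by 1.66 (SE 0.18, adjusted p = 2.78e-07).

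Of the surface protein genes, Epha4 was higher without DHX36 and highest without both helicases, and Ncam1 was lower in DHX36/FANCJ KO. EPHA4 is a receptor tyrosine kinase for ephrins that guides axons, and its gene (ENSMUSG00000026235) lies on chromosome 1, 77367185 to 77515088, minus strand. Epha4 stood at 74.5, 77.0 and 77.4 CPM in DHX36/FANCJ KO, 38.8, 46.6 and 45.3 CPM in DHX36 KO, 24.6, 22.2 and 26.0 CPM in FANCJ KO and 20.6, 20.2 and 17.8 CPM in WT. In that order from high to low no genotype overlapped the next. Epha4 rose 3.90-fold in DHX36/FANCJ KO against WT (log2 fold change 1.96, SE 0.11, adjusted p = 2.3e-11) and 2.22-fold in DHX36 KO (1.15, SE 0.12, adjusted p = 2.43e-07), and its value in FANCJ KO was 0.30 (SE 0.12, adjusted p = 0.236). It was higher in DHX36/FANCJ KO than in DHX36 KO by 0.81 (SE 0.10, adjusted p = 3.23e-06) and than in FANCJ KO by 1.66 (SE 0.10, adjusted p = 5.97e-11).

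Ncam1 (ENSMUSG00000039542, chromosome 9, 49502136 to 49798925, minus strand) encodes the neural cell adhesion molecule. It had 13.8, 15.5 and 14.2 CPM in DHX36/FANCJ KO, 15.9, 18.6 and 19.1 CPM in DHX36 KO, 24.0, 30.4 and 16.9 CPM in FANCJ KO and 18.8, 18.7 and 23.4 CPM in WT. DHX36/FANCJ KO libraries lay below those of every other genotype, and DHX36 KO, FANCJ KO and WT overlapped one another. The FANCJ KO libraries were spread most, with a coefficient of variation of 28.5% beside 7.77% from counting. Ncam1 fell by 0.48 (SE 0.17, adjusted p = 0.0319) in DHX36/FANCJ KO against WT, a call lost without WT library 3 (0.136), DHX36/FANCJ KO library 1 (0.0907) or DHX36/FANCJ KO library 3 (0.0725). It was -0.18 (SE 0.17, adjusted p = 0.489) in DHX36 KO and 0.26 (SE 0.17, adjusted p = 0.518) in FANCJ KO, and lower in DHX36/FANCJ KO than in FANCJ KO by 0.74 (SE 0.16, adjusted p = 0.000906).

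**Figure D2:**
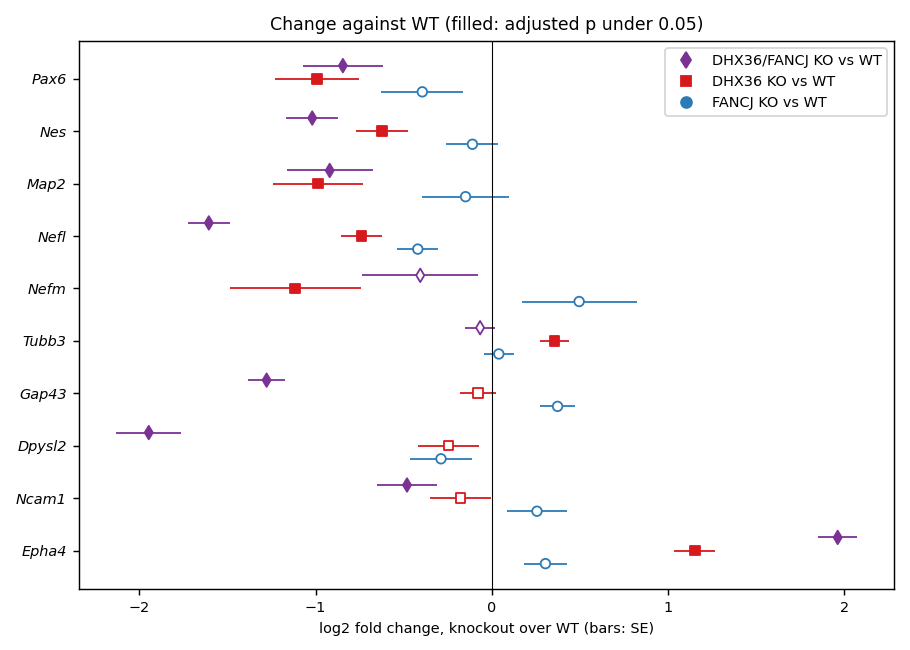
Log2 fold change of the 10 genes against WT (horizontal axis) in DHX36/FANCJ KO (diamonds), DHX36 KO (squares) and FANCJ KO (circles), with bars of 1 SE and filled symbols where the adjusted p was under 0.05. Epha4 lies furthest right at 1.96 in DHX36/FANCJ KO, Dpysl2 furthest left at -1.95, and no symbol of FANCJ KO is filled.

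Setting the double knockout against each single knockout, 1 of the 10 genes was higher and 4 lower in DHX36/FANCJ KO than in DHX36 KO, where 19.7% of all genes tested changed, 8.28% upward and 11.4% downward. The DHX36/FANCJ KO libraries lay all above those of DHX36 KO for 2 genes and all below for 6, with 36.9% of all genes not overlapping. Epha4 was the gene that was higher, and Nefl, Tubb3, Gap43 and Dpysl2 were lower. Against FANCJ KO, 1 was higher and 7 were lower in DHX36/FANCJ KO, where 36.8% of all genes changed, 18.3% upward and 18.5% downward. By library, 1 gene lay above, 8 lay below and 1 overlapped, with 48.7% of all genes not overlapping. Pax6 (-0.45, SE 0.22, adjusted p = 0.119) and Tubb3 (-0.11, SE 0.08, adjusted p = 0.331) were the exceptions there. Pax6 (0.15, SE 0.23, adjusted p = 0.710), Map2 (0.07, SE 0.25, adjusted p = 0.892), Nefm (0.71, SE 0.33, adjusted p = 0.146) and Ncam1 (-0.30, SE 0.16, adjusted p = 0.198), like Nes, did not pass the test between DHX36/FANCJ KO and DHX36 KO.

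Whether the effect of losing FANCJ differed between cells without and with DHX36 was tested by the interaction, the log2 difference of DHX36/FANCJ KO from DHX36 KO minus that of FANCJ KO from WT. It passed for 4 of the 10 genes, 1 upward and 3 downward, where 8.79% of all genes tested passed, 2.73% upward and 6.06% downward. Since the 10 genes were chosen with earlier results of these data known, that count is a description. Gap43 had an interaction of -1.57 (SE 0.14, adjusted p = 2.85e-07), since loss of FANCJ gave -1.20 without DHX36 and 0.37 with it. For Dpysl2 the interaction was -1.41 (SE 0.25, adjusted p = 0.000759), with -1.70 without DHX36 and -0.29 with it. Tubb3 had -0.46 (SE 0.12, adjusted p = 0.0141) and Epha4 0.51 (SE 0.16, adjusted p = 0.0476). The Epha4 call was the least stable, lost in 12 of 18 alternative settings, among them DESeq2 (0.0588) and the omission of any 1 of 9 of the 12 libraries.

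Expressed as sums, the changes of both single knockouts added to 0.30 for Gap43 and -0.53 for Dpysl2, while the double knockout stood at -1.28 and -1.95. For Tubb3 the sum was 0.40 against a double knockout value of -0.07, and for Epha4 1.46 against 1.96. The remaining 6 genes had interactions between -0.56 and 0.54 that did not pass, among them Nefl (-0.45, SE 0.17, adjusted p = 0.102), Nes (-0.29, SE 0.21, adjusted p = 0.449) and Pax6 (0.54, SE 0.33, adjusted p = 0.349). Ncam1 (-0.56, SE 0.23, adjusted p = 0.150) passed without FANCJ KO library 3 (0.0314).

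**Figure D3:**
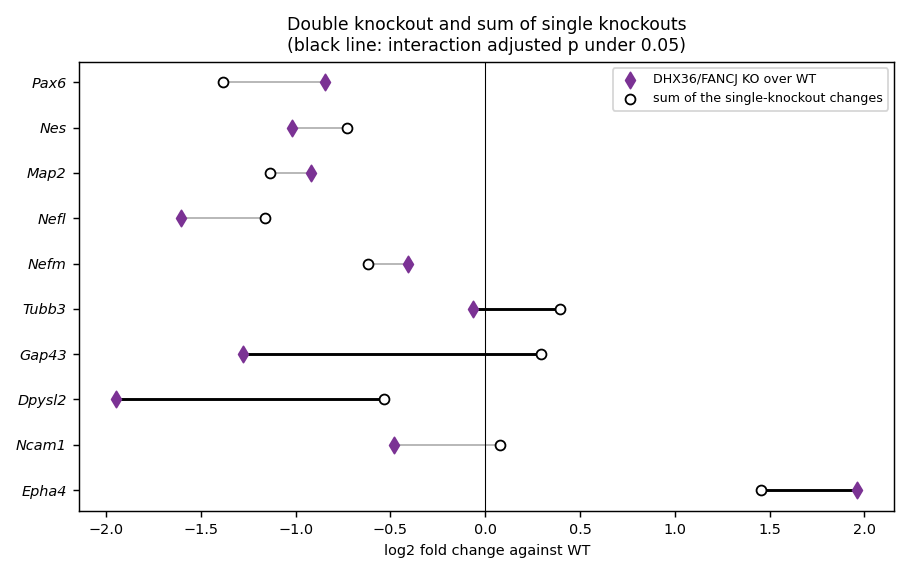
Log2 fold change against WT (horizontal axis) of each gene in DHX36/FANCJ KO (diamonds) and the sum of its changes in DHX36 KO and FANCJ KO (circles), joined by a black line where the interaction passed at an adjusted p under 0.05 and by a grey line elsewhere. The gaps of Gap43 and Dpysl2 are the widest, with circles at 0.30 and -0.53 and diamonds at -1.28 and -1.95.

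Other neural genes, from lists that hold none of the 10, moved in both directions. Each gene given below with a log2 change and its SE passed edgeR's test at an adjusted p under 0.05. Counts of list genes called against WT, here and below, are to be read beside the shares over all genes tested. These were 16.6% upward and 17.3% downward in DHX36/FANCJ KO, 12.8% and 11.6% in DHX36 KO, and 1.45% and 0.619% in FANCJ KO. The lists too were chosen with earlier results of these data known. Some lists share genes, so their counts are not separate evidence. Pou3f1 and Zic2 stood among both the neural transcription factor genes and the formative and primed pluripotency genes. Eomes and Hand1 were shared by the mesendoderm and trophoblast lists, and Pdgfra by the glial and primitive endoderm lists. Of 22 tested genes of axon growth and guidance, 2 rose and 11 fell in DHX36/FANCJ KO (median -0.58), 3 rose and 6 fell in DHX36 KO (median -0.12), and 1 rose and 1 fell in FANCJ KO (median 0.16), where 0 or 1 was called without any one of the WT libraries or without FANCJ KO library 1 or 3. The guidance cue gene Ntn1 fell in both genotypes without DHX36, by 1.67 (SE 0.17) in DHX36/FANCJ KO and by 1.58 (SE 0.18) in DHX36 KO on the log2 scale. Its mean level was 7.66 ± 1.37 CPM in DHX36/FANCJ KO, 8.41 ± 2.21 CPM in DHX36 KO, 16.7 ± 0.980 CPM in FANCJ KO and 24.6 ± 2.73 CPM in WT (SD, n = 3 each). The semaphorin gene Sema3e fell by 1.57 (SE 0.13) in DHX36/FANCJ KO and by 0.82 (SE 0.13) in DHX36 KO. Of the relatives of Dpysl2, Dpysl5 fell by 1.39 (SE 0.21) in DHX36/FANCJ KO, where the mean level of Crmp1 lay above that in WT. Crmp1 rose by 1.50 (SE 0.13) in DHX36 KO, with 47.1 ± 3.12 CPM in DHX36/FANCJ KO, 64.3 ± 3.05 CPM in DHX36 KO, 22.8 ± 3.24 CPM in FANCJ KO and 22.6 ± 3.52 CPM in WT.

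The interaction passed downward for 7 of these 22 axon genes and upward for none, where 6.06% of all genes tested passed downward and 2.73% upward, so calls leaned downward over all genes too. The median over the 22 was -0.47 beside 0.00 over all genes. Unc5b (-1.30, SE 0.17), which encodes a netrin receptor, Sema6a (-1.17, SE 0.13) and Plxna1 (-1.06, SE 0.13), which encodes a semaphorin co-receptor, were among the 7.

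Around Epha4, 3 of 15 tested ephrin receptor and ligand genes rose and 8 fell in DHX36/FANCJ KO (median -0.54), 4 rose and 2 fell in DHX36 KO (median -0.20), and in FANCJ KO neither edgeR nor DESeq2 called any, with 3 at an unadjusted p under 0.05 in edgeR. The ligand gene Efna5 averaged 9.33 ± 2.08 CPM in DHX36/FANCJ KO, 19.6 ± 2.46 CPM in DHX36 KO, 36.8 ± 4.12 CPM in FANCJ KO and 26.7 ± 3.57 CPM in WT (SD, n = 3 each). It fell by 1.51 (SE 0.16) in DHX36/FANCJ KO and had an interaction of -1.50 (SE 0.22). The ligand genes Efna2 (-1.02, SE 0.18) and Efnb1 (-0.98, SE 0.19) fell beside it in DHX36/FANCJ KO, and the receptor gene Ephb2 rose there by 1.20 (SE 0.27). In DHX36 KO the receptor gene Epha1 rose by 1.16 (SE 0.25). Fewer ephrin genes were called with some libraries left out, namely 7 in place of 11 in DHX36/FANCJ KO without WT library 3 or DHX36/FANCJ KO library 1, and 3 in place of 6 in DHX36 KO without WT library 1 or 2 or DHX36 KO library 2 or 3.

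Among 9 tested progenitor markers, 1 rose and 3 fell in DHX36/FANCJ KO and 3 rose and 1 fell in DHX36 KO, where 2 in place of 4 were called without WT library 2 or 3 or DHX36 KO library 3. Dbn1, which encodes the actin-binding protein drebrin, fell by 1.48 (SE 0.10) in DHX36/FANCJ KO and by 0.40 (SE 0.10) in DHX36 KO. The RNA-binding protein gene Msi1 averaged 42.5 ± 2.58 CPM in DHX36/FANCJ KO, 79.8 ± 4.48 CPM in DHX36 KO, 27.0 ± 3.22 CPM in FANCJ KO and 36.0 ± 7.01 CPM in WT (SD, n = 3 each), and rose by 1.16 (SE 0.12) in DHX36 KO. Neural transcription factor genes split, with 6 rising and 6 falling of 22 in DHX36/FANCJ KO and 6 rising and 5 falling in DHX36 KO, or 6 called in place of 11 without WT library 1 or 2. Meis1 fell by 1.76 (SE 0.22) in DHX36/FANCJ KO and by 3.47 (SE 0.29) in DHX36 KO, Meis2 rose by 1.39 (SE 0.15) in DHX36/FANCJ KO, and Gbx2 fell there by 1.23 (SE 0.11).

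Neuronal cytoskeleton genes also went both ways, with 6 rising and 8 falling of 21 in DHX36/FANCJ KO and 3 rising and 5 falling in DHX36 KO. Mapt, which encodes the microtubule-associated protein tau, rose by 0.92 (SE 0.15) in DHX36/FANCJ KO, where Map2 fell. Nefh, which encodes the heavy chain of neurofilaments, rose by 0.94 (SE 0.18) in DHX36/FANCJ KO and by 1.15 (SE 0.18) in DHX36 KO, where Nefl fell. Without DHX36 KO library 2 the rise in DHX36 KO was 0.81. Nefh levels were 57.8, 68.9 and 65.5 CPM in DHX36/FANCJ KO, 57.5, 107 and 59.5 CPM in DHX36 KO, 35.3, 39.0 and 37.1 CPM in FANCJ KO and 37.9, 31.5 and 30.9 CPM in WT. DHX36 KO library 2 stood above the rest of its genotype, and the 6 libraries without DHX36 lay above the 6 with it. Of 19 tested genes of synapses and mature neurons, 5 rose and 5 fell in DHX36/FANCJ KO and 6 rose and 2 fell in DHX36 KO, where 4 in place of 8 were called without DHX36 KO library 1 or 3. The RNA-binding protein gene Elavl3 rose by 1.16 (SE 0.20) in DHX36/FANCJ KO and by 1.96 (SE 0.19) in DHX36 KO. In FANCJ KO the neuropeptide precursor gene Vgf rose by 0.93 (SE 0.10), the single gene of that list to pass.

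**Figure D4:**
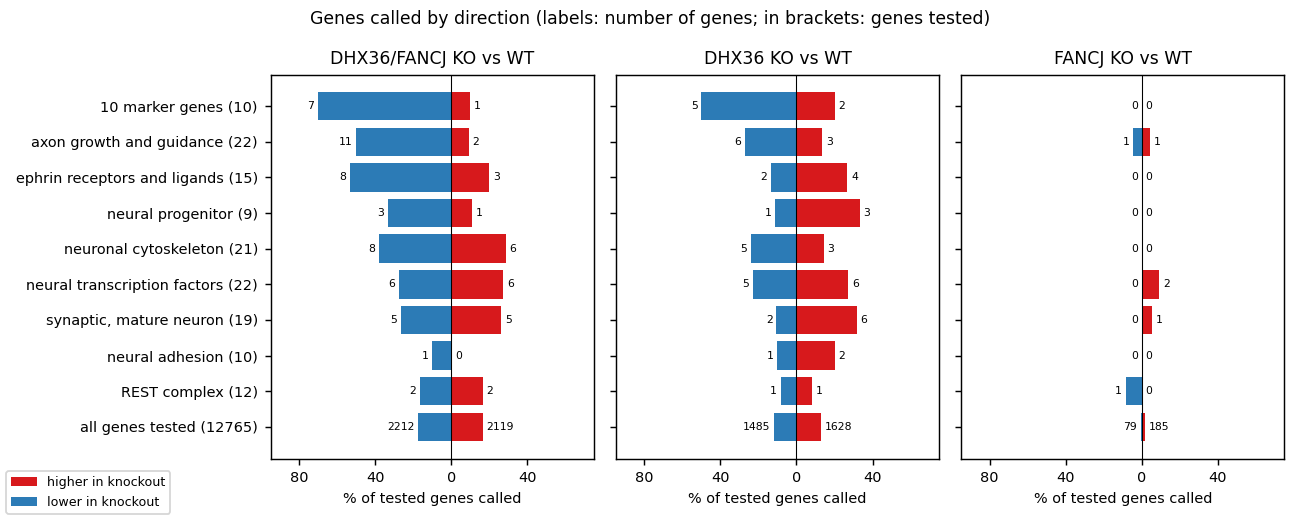
Share of tested genes called higher (right, red) and lower (left, blue) in DHX36/FANCJ KO, DHX36 KO and FANCJ KO against WT, in percent of the genes of each list, with the number of genes at each bar and the number tested in brackets. The 10 marker genes have 1 higher and 7 lower in DHX36/FANCJ KO, and the synaptic list has 5 and 5.

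The transcript of Rest, which encodes a repressor of neuronal genes in cells that are not neurons, was slightly higher where both helicases were missing. Rest averaged 158 ± 14.6 CPM in DHX36/FANCJ KO, 132 ± 2.59 CPM in DHX36 KO, 109 ± 9.79 CPM in FANCJ KO and 116 ± 8.22 CPM in WT (SD, n = 3 each), a rise of 0.45 (SE 0.09) in DHX36/FANCJ KO. Over 12 genes of REST and its cofactors, 2 rose and 2 fell in DHX36/FANCJ KO, 1 rose and 1 fell in DHX36 KO and 1 fell in FANCJ KO. Of all genes tested 33.9%, 24.4% and 2.07% were called in that order. The share among the 12 was close to that over all genes in DHX36/FANCJ KO and below it in DHX36 KO, and in FANCJ KO it rested on 1 gene. Without WT library 2 these counts were 2, 1 and 0 genes called in DHX36/FANCJ KO, DHX36 KO and FANCJ KO, and the gene in FANCJ KO was also lost without WT library 3 or any one FANCJ KO library.

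Markers of other cell types moved with the genotypes too, and their part in the results above was not tested. The CPM of 12 fibroblast markers added together ran from 149 to 166 in DHX36/FANCJ KO libraries, 369 to 403 in DHX36 KO, 1008 to 1041 in FANCJ KO and 691 to 854 in WT. Of 8 tested, 1 rose and 5 fell in DHX36/FANCJ KO, 1 rose and 3 fell in DHX36 KO and 2 rose and none fell in FANCJ KO. The median log2 fold change of the 8 was -1.19, -0.10 and 0.01 in that order. Acta2 (21846 counts over the 12 libraries) and Tagln (18011) weighed most in the sum, beside 3916 for Col1a1 and 10 for Dcn. The CPM of 12 trophoblast markers added together ran from 430 to 453 in DHX36/FANCJ KO, 616 to 676 in DHX36 KO, 1138 to 1200 in FANCJ KO and 946 to 1087 in WT. Krt8 (34198 counts) and Krt18 (13284) weighed most there. Such sums follow their most counted genes and do not measure a share of cells. For 13 naive pluripotency genes the sum ran from 2014 to 2189 in DHX36/FANCJ KO, 1637 to 1753 in DHX36 KO, 1478 to 1505 in FANCJ KO and 1582 to 1650 in WT. Of the 13, 8 rose and none fell in DHX36/FANCJ KO, 4 rose and 2 fell in DHX36 KO, and 1 fell in FANCJ KO. Formative and primed pluripotency genes, 11 in number, summed to 719 to 750 CPM in DHX36/FANCJ KO, 813 to 887 in DHX36 KO, 387 to 409 in FANCJ KO and 421 to 452 in WT. Of the 11, 5 rose in DHX36/FANCJ KO and 7 in DHX36 KO, none fell in either, and none was called in FANCJ KO. The summed level of 12 glial markers was 34.1 to 37.8 CPM in DHX36/FANCJ KO, 38.0 to 40.9 in DHX36 KO, 29.8 to 33.6 in FANCJ KO and 25.6 to 32.8 in WT. Of the 12, 3, 2, 2 and 4 had no count in any library of these genotypes in that order. Mitochondrial transcripts took 11.9% to 13.2% of counts in DHX36/FANCJ KO libraries, 11.0% to 12.3% in DHX36 KO, 11.2% to 11.5% in FANCJ KO and 10.0% to 10.6% in WT.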

How the data were processed

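Bulk RNA-seq was measured in 12 libraries, 3 per genotype, made by a protocol like CEL-Seq2 from total RNA of lysed cells, per the labels' protocols. The authors deposited raw, whole-number counts for each gene. BWA and the builds GRCm38 and hg38 are named in the submitters' processing notes, and roles, versions, strand and the collapsing of molecular identifiers were not given in the sources used here. The 92 spike-ins were left out. Depth was 4284785 to 14721931 counts, so a gene with few counts carries a large counting error. Replicate libraries were not copies of one another (chi-square over degrees of freedom of 4.11 to 12.3) and each counted as 1 replicate.

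CPM used edgeR's trimmed-mean (TMM) totals. Tests were edgeR 4.0.16 quasi-likelihood F tests in R 4.3.3 with its default expression filter, 1 model over all 4 genotypes, two-sided, with Benjamini-Hochberg adjustment over 12765 genes and a threshold of 0.05. Standard errors were taken from each fold change and F value. On simulated counts, 200 of 12523 genes, all above 5 CPM, were changed by 1 on the log2 scale between DHX36 KO and WT. Of these 96% were recovered, and 5.88% of the genes called were false. In the data 3113 genes were called in that comparison. Recovery of smaller changes, or of genes counted as thinly as Nefm (mean 2.32 CPM), was not simulated. The 10 genes and all lists were chosen with earlier results of these data known. Named beside the 10 and the targeted genes were up to 4 called genes per list and comparison with the largest changes and a mean of at least 5 CPM, of which some are given; for likeness, the 3 genes with the highest correlation of log2 CPM (prior count 2) to the most counted gene of each class. Further lists named there held neural adhesion, mesendoderm and primitive endoderm genes. Alternatives were DESeq2 1.42.0, its size factors, no filter, thinning to equal depth, the compared genotypes alone, a replicate block and omission of each library; totals without TMM factors were added after the data were seen. Coordinates are from GENCODE M21 (GRCm38), and promoter sequences from RefSeq (GRCm38.p6).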

Additional observations from a re-analysis of the deposited data

Results flagged for a closer look

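By edgeR's test of the difference itself, the effect of FANCJ loss differed between cells without and with DHX36 for 4 of the 10 marker genes, 1 upward and 3 downward, where 8.79% of all genes tested passed, 2.73% upward and 6.06% downward. The 10 genes were chosen with earlier results of these data known, so the count is no test of the set. The log2 difference between the effects was -1.57 for Gap43 (adjusted p = 2.85e-07), -1.41 for Dpysl2 (adjusted p = 0.000759), -0.46 for Tubb3 (adjusted p = 0.0141) and 0.51 for Epha4 (adjusted p = 0.0476). The Epha4 call was lost in 12 of 18 alternative settings, among them DESeq2 (adjusted p = 0.0588) and a replicate block (adjusted p = 0.0640). In Gap43, each of the 3 DHX36/FANCJ KO libraries lay below each DHX36 KO library and each of the 3 FANCJ KO libraries above each WT library.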

How the results depend on the processing

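Of 830 values of the 10 genes under alternative settings, 791 kept their direction and side of the threshold, 30 lost the call, 4 gained one and 5 changed sign. The changes of sign were all in values near 0 that did not pass: Nes (0.013; -0.22 to 0.013 with 1 library left out) and Map2 (0.011; -0.25 to 0.011) in FANCJ KO against WT without FANCJ KO replicate 2, Map2 in DHX36/FANCJ KO against DHX36 KO without DHX36 KO replicate 2 (-0.094) or DHX36/FANCJ KO replicate 2 (-0.055; -0.094 to 0.31), and the interaction of Nefm on thinned counts (-0.025). The 264 genes called in FANCJ KO against WT became 418 without the expression filter, where more genes were tested, 159 with the compared genotypes fitted alone, where fewer libraries set the spread, and 110 to 198 with 1 library left out; 110 and 143 came without FANCJ KO replicates 1 and 3, 130 and 131 without WT replicates 1 and 2. With DESeq2 1 of the 10 genes was called there, and the cause was not tested. With 1 library left out, the number of the 10 called ran from 7 to 8 in DHX36/FANCJ KO against WT, 6 to 6 in DHX36 KO against WT, 0 to 0 in FANCJ KO against WT, 5 to 6 against DHX36 KO and 6 to 8 against FANCJ KO in the double knockout, and 3 to 5 in the interaction. The number of all genes called fell too. Against WT it was 3498 to 3940 in DHX36/FANCJ KO (4331 with all libraries) and 2503 to 2700 in DHX36 KO (3113). In the double knockout it was 1789 to 2115 against DHX36 KO (2512) and 3869 to 4206 against FANCJ KO (4697). For the interaction it was 880 to 1071 (1122). On thinned counts Nefm in DHX36 KO (adjusted p = 0.0845) and Ncam1 in DHX36/FANCJ KO (0.0732) no longer passed against WT. In their deviations from the genotype mean, same-numbered libraries of different genotypes had correlations of -0.12 to 0.12 and differently numbered ones -0.13 to 0.16. No deviation shared by replicate number was thus seen. This cannot show whether same-numbered libraries were prepared together, which the labels used here do not say. With a replicate block 8, 7 and 0 of the 10 were called against WT in DHX36/FANCJ KO, DHX36 KO and FANCJ KO, and the Epha4 interaction had an adjusted p of 0.0640. Over all genes tested the block called 4264, 3004 and 233 against WT in the same order of genotypes, beside 4331, 3113 and 264 without it. Depth limits Nefm most, with 6 to 31 counts per library.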

Other observations

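For the most counted gene of each class, the tested genes whose log2 CPM followed it most closely over the 12 libraries were picked by Pearson's r, among 7548 candidates. This is a description over 12 points that share 4 genotypes. Epha4 was followed by the naive pluripotency gene Fbxo15 (0.989), the kinase gene Csnk1e (0.987) and the Mediator subunit gene Med13l (0.977). Gap43 was followed by Smim3 (0.989), Fam107b (0.980) and Timp3 (0.976), which encodes an inhibitor of metalloproteinases. Tubb3 was followed by Arpc4 (0.948), a gene of the ARP2/3 complex, Pipox (0.944) and the nonsense-mediated decay gene Upf1 (0.942). Nes was followed by Zmynd8 (0.965), Cebpz (0.955) and the chaperone gene Dnaja2 (0.951).

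Of the remaining lists, 10 neural adhesion genes had 1 lower and none higher in DHX36/FANCJ KO, 1 lower and 2 higher in DHX36 KO and in FANCJ KO none with edgeR or DESeq2, against WT, with 3 there at an unadjusted p under 0.05 in edgeR. Of 12 primitive endoderm markers 4 rose and 3 fell in DHX36/FANCJ KO, 3 rose and 3 fell in DHX36 KO and 8 rose and none fell in FANCJ KO. Of 6 tested mesendoderm genes 2 rose and 1 fell in DHX36/FANCJ KO, 3 rose and none fell in DHX36 KO and 1 rose and 1 fell in FANCJ KO. In DHX36 KO 3 of 11 tested trophoblast markers rose and 6 fell, and in DHX36/FANCJ KO 4 rose and 6 fell.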
